A study of Mus musculus with 12 samples.

Results

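The 10 genes described here carry or control de novo lipogenesis in the liver: *Srebf1*, *Mlxipl*, *Acly*, *Acaca*, *Fasn*, *Scd1*, *Elovl6*, *Me1*, *Thrsp* and *Pnpla3*. They were chosen by name for their place in the pathway, out of 24532 genes in the table, with earlier results of these data known. All 10 were among the 14038 genes abundant enough to be tested. De novo lipogenesis turns surplus carbohydrate into fatty acids. Citrate leaves the mitochondrion and is split to acetyl-CoA, which is carboxylated to malonyl-CoA, and fatty acid synthase joins these units to palmitate, which is then elongated and desaturated with NADPH as the reductant. In hepatocytes the genes are driven by SREBP-1, a membrane-bound factor that the escort protein SCAP carries to the Golgi for cleavage and that insulin induces, and by ChREBP, which responds to glucose metabolites.

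RNA-seq was performed on 12 livers of male mice in 4 groups of 3. All mice carried *Ahr* fl/fl, in which loxP sites flank the second exon of *Ahr*, the gene of a ligand-activated transcription factor. *Ahr* HKO mice also carried *Alb*-Cre, which is driven by the albumin promoter and so acts in hepatocytes, and WT mice were their littermates without Cre. Mice of each genotype were fed a Lieber-DeCarli diet with ethanol at 5% of its volume, 36% of its calories, or an isocaloric control diet for 5 weeks from an age of 10 to 12 weeks. The livers were whole tissue, so other cells of the liver kept *Ahr*. Libraries held 46306518 to 74336255 reads on genes. The level of a gene is given as CPM, read counts scaled to library size by TMM factors, and a level set against another gene is given as FPKM, which also divides by gene length. Log2 fold changes (log2 FC) are given ± SE with P values adjusted over all 14038 genes, from the quasi-likelihood test of edgeR, and a gene was called at an adjusted P under 0.05. The labels do not give an animal for each library, and P values measure the spread between these livers.

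The count table holds whole genes and does not separate the floxed exon, so it does not check the deletion. *Ahr* itself was listed at 20.1, 16.6 and 18.3 CPM in WT and at 65.5, 41.3 and 63.3 CPM in *Ahr* HKO on the control diet, and at 30.5, 20.8 and 23.5 CPM against 41.8, 32.1 and 24.7 CPM on the ethanol diet. *Cyp1a2*, a known AhR target, was at 398 to 617 CPM in WT and at 90.7 to 258 CPM in *Ahr* HKO on the control diet, and at 992 to 1212 CPM and 629 to 684 CPM on the ethanol diet. Hepatocyte markers (*Alb*, *Apoa1*, *Ttr*, *Apoc3*, *Fgb* and *Hnf4a*) summed to 78546 to 125089 CPM in every liver. The adipocyte markers *Lep*, *Retn* and *Plin1* had no read in any liver and *Adipoq* was at or below 0.0653 CPM. With *Cfd* and *Lipe*, the 6 adipocyte markers summed to 10.5 to 28.0 CPM in WT and 13.3 to 50.3 CPM in *Ahr* HKO, the highest being control liver 1 with *Cfd* at 34.7 CPM. The 2 tested, *Cfd* and *Lipe*, were called lower with ethanol in WT, and against WT *Cfd* was called higher in *Ahr* HKO on each diet and *Lipe* lower on the control diet. The 6 Kupffer cell and macrophage markers summed to 322 to 416 CPM in WT and 286 to 817 CPM in *Ahr* HKO on the control diet, and to 290.0 to 739 CPM and 179 to 226 CPM on the ethanol diet. All 6 were called lower on ethanol in *Ahr* HKO, against 15.9% of tested genes. WT ethanol liver 2 was the highest of its group for 6 of 6 Kupffer cell and 6 of 6 sinusoidal endothelial markers, with endothelial sums of 370 CPM against 174 and 196 CPM. Over all tested genes that liver was the highest for 28.8%. *Ahr* HKO control liver 1 was the highest of its group for 6 of 6 Kupffer cell and 5 of 5 leukocyte markers, and its cholangiocyte markers summed to 476 CPM against 179.9 and 44.5 CPM. Over all tested genes that liver was the highest for 32.6%. Of 6 stellate cell markers, 3 were called higher with ethanol in WT, where the 6 summed to 275 to 323 CPM against 192 to 252 CPM in controls. Of all tested genes 4.84% were called higher and 4.63% lower with ethanol in WT. Fewer cells of a type and less RNA per cell cannot be told apart in such tissue, and the part of cell composition in the results below was not tested. The ethanol and genotype comparisons share livers, so their values are set side by side only.

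*Ahr* HKO ethanol liver 1 stood apart for these genes. It was the highest of its group for 10 of 10 genes and lay over 1.5-fold above both other livers for 8 of 10, against 4.23% of tested genes, and the median of the 10 was 2.33-fold over the mean of the other livers on the log scale. Over all tested genes it was the highest of its group for 37.8%. The excess ran from 1.33-fold for *Mlxipl* to 11.5-fold for *Pnpla3*. All 15 cholesterol synthesis genes were also highest in that liver, 12 of them over 1.5-fold above both others. Its clock genes stood apart as well, with *Dbp* at 33.9 CPM against 179 and 141 CPM, *Per3* at 9.30 against 33.4 and 28.5 CPM, and *Arntl* at 15.3 against 4.17 and 6.63 CPM. The part of the clock genes in the lipogenic levels was not tested. Values of the 10 genes that leaving this liver out changed by over 1.5 times, or that changed side of the threshold, are given both ways for ethanol in *Ahr* HKO. Values of the other genes named below and of the gene lists are given with every liver only. Their dependence on this liver was not tested.

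**Figure D1:**
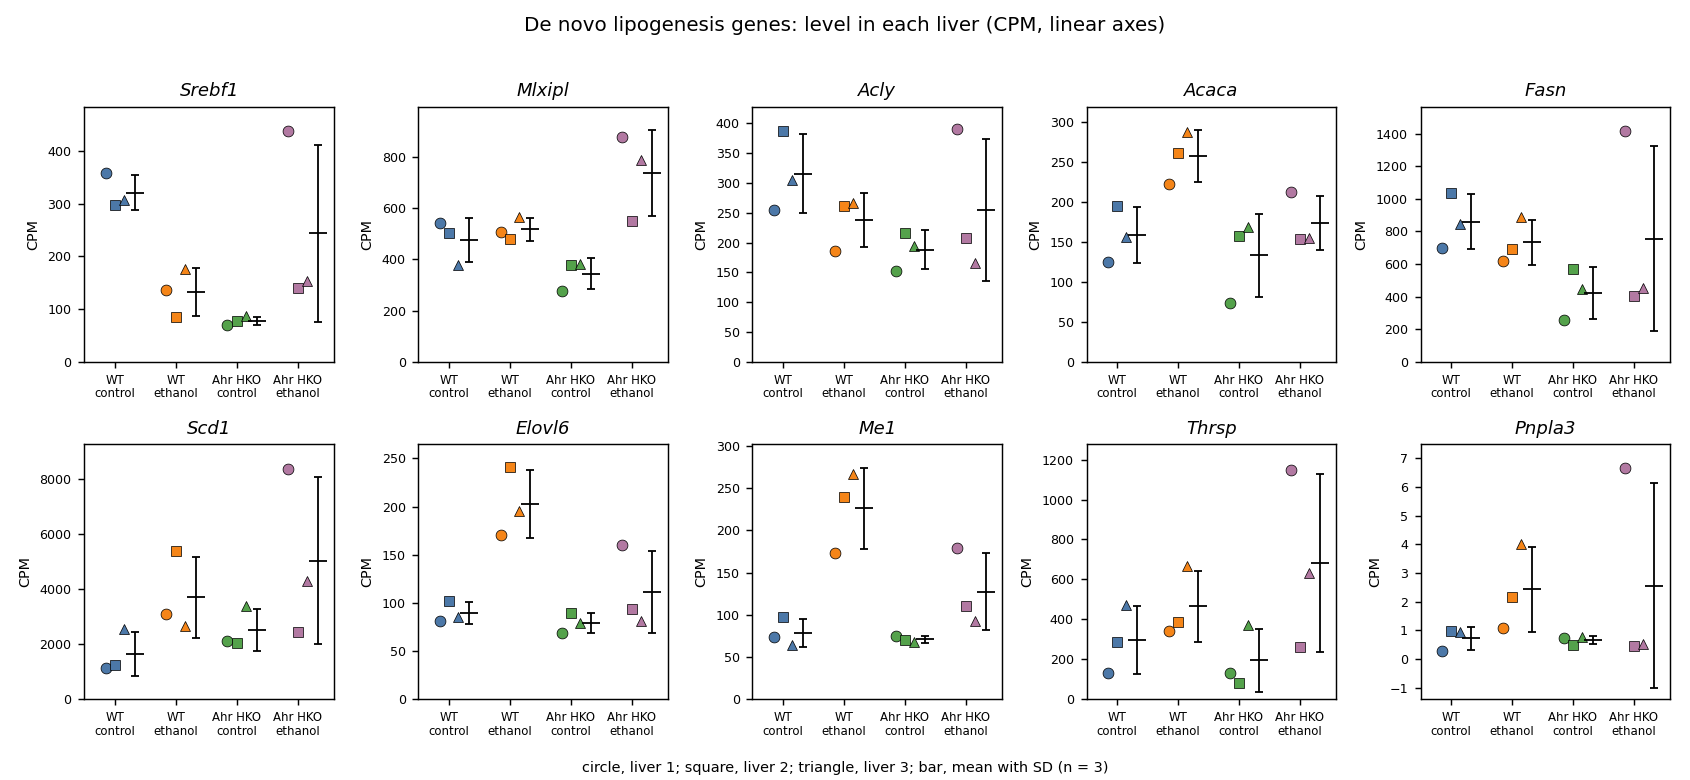
Level of each gene in each of the 12 livers in CPM on linear axes, with points for livers 1 to 3 of each group and bars for the mean and SD (n = 3). *Srebf1* fell from 297 to 358 CPM in WT controls to 84.3 to 176 CPM in WT on ethanol and was lowest, at 69.7 to 86.4 CPM, in *Ahr* HKO controls, while *Elovl6* and *Me1* were highest in WT on ethanol.

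*Srebf1* encodes SREBP-1. Its level fell with ethanol in WT and rose with ethanol in *Ahr* HKO, and on the control diet it was lower in *Ahr* HKO than in WT. The gene lies on chromosome 11 (GRCm38, 60199084 to 60224186, minus strand) and has several annotated starts. The most downstream of them, called the internal start here, is that of the SREBP-1c form, which is the main form in liver. The 300 bases around that start, 250 before it to 50 after it, are shown because this gene carries the largest difference in diet response between the genotypes among the 10 members. They come from RefSeq annotation of GRCm38.p6, 5′ to 3′ on the strand of the gene, chr11:60210422-60210721, minus strand. Capitals mark the NF-Y box, CCAAT, on either strand, the motif of a factor that works with SREBPs.
Srebf1 internal start: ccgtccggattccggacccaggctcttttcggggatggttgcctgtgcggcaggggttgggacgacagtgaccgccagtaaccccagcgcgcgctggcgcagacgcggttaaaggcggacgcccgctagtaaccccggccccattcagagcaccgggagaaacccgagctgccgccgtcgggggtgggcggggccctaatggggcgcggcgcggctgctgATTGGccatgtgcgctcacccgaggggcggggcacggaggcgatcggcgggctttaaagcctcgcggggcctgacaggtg
The box lay on the other strand at bases -30 to -26 from the start, where bases after the start count from 1, and 37.4% of all promoters of this length held such a box. The SRE TCACNCCAC and the E-box CACGTG, searched on both strands, had no match in this window. Nor did GCGTG, the core of the xenobiotic response element that AhR binds, searched in the same way. Windows at the other annotated starts of *Srebf1* are not shown. The one at chr11:60222532-60222831 held an NF-Y box at -166 to -162. The counts cover the whole gene and do not separate its starts.

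In WT livers *Srebf1* was at 358, 297 and 306 CPM on the control diet and at 137, 84.3 and 176 CPM on ethanol. No ethanol liver of WT reached the lowest control liver. The fall was 1.26 ± 0.25 on the log2 scale (edgeR, adjusted P = 0.0245, n = 3 per group). In *Ahr* HKO livers *Srebf1* was at 69.7, 76.7 and 86.4 CPM on the control diet and at 438, 140 and 153 CPM on ethanol. Every ethanol liver lay above every control liver, with liver 1 near 3-fold above the other 2. The rise was a log2 FC of 1.65 ± 0.43 (edgeR, adjusted P = 0.0278), and without liver 1 it was 0.92 ± 0.14 (edgeR, adjusted P = 0.0106). On the control diet the level in *Ahr* HKO was below that of WT by a log2 FC of -2.04 ± 0.13 (edgeR, adjusted P = 0.000603), and the groups did not overlap. On the ethanol diet the log2 FC of *Ahr* HKO against WT was 0.88 ± 0.47 (edgeR, adjusted P = 0.327), and without liver 1 it was 0.16. The diet effect in *Ahr* HKO exceeded that in WT by 2.92 ± 0.56 on the log2 scale (edgeR, adjusted P = 0.00487, n = 12 livers), and by 2.19 ± 0.33 without liver 1 (edgeR, adjusted P = 0.00256). With any single liver left out the difference lay between 2.19 and 3.20, with adjusted P of 0.00256 to 0.0134 (edgeR). The diet calls were less firm: in WT adjusted P was 0.0847, 0.0706 and 0.0702 (edgeR) without control liver 1, 2 or 3 and 0.0572 without ethanol liver 1, and in *Ahr* HKO it was 0.0819, 0.0815 and 0.0553 (edgeR) without control liver 1, 2 or 3. The order of the means was WT control (320.4 ± 33.1 CPM), *Ahr* HKO ethanol (243 ± 168), WT ethanol (132 ± 46.1) and *Ahr* HKO control (77.6 ± 8.39; SD, n = 3 each). The *Ahr* HKO ethanol group overlapped its neighbours on either side in this order, and WT ethanol overlapped *Ahr* HKO control, whose highest liver was at 86.4 CPM.

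*Mlxipl* encodes ChREBP, the glucose-responsive partner of SREBP-1 in lipogenic control. It lies on chromosome 5 (GRCm38, 135089890 to 135139768, plus strand) and has a distal and an internal annotated start. Their RefSeq promoters of GRCm38.p6 are shown because *Mlxipl* was the other gene whose diet response differed between the genotypes. Capitals mark the NF-Y box, the E-box CACGTG, the sterol regulatory element (SRE) TCACNCCAC and the core of the AhR-binding xenobiotic response element (XRE), GCGTG, on either strand, at chr5:135089640-135089939 and chr5:135106641-135106940, plus strand.
Mlxipl distal start: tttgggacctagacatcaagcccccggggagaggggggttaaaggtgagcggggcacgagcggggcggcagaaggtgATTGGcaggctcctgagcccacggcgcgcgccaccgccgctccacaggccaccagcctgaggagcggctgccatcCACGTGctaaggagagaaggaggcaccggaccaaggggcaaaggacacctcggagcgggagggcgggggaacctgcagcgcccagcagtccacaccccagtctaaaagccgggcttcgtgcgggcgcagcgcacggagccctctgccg
Mlxipl internal start: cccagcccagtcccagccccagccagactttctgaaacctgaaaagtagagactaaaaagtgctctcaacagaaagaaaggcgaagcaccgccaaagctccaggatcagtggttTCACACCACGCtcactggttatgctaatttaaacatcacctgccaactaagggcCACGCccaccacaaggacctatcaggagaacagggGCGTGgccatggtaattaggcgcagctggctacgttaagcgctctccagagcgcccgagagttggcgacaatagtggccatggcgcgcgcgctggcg
The distal promoter held an E-box at bases -98 to -93, a motif that 7.15% of promoters hold, and an NF-Y box at -173 to -169. The internal promoter held an SRE, TCACACCAC, at -136 to -128, which 1.24% of promoters hold, and it overlapped an XRE core at -130 to -126. Further XRE cores lay at -82 to -78 and -47 to -43, a short motif found in 32.4% of promoters. These matches are letters in a window and carry no evidence of binding.

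In WT *Mlxipl* was at 543, 504 and 379 CPM on the control diet and 506, 479.9 and 566 CPM on ethanol, and the groups overlapped. The log2 FC was 0.13 ± 0.16 (edgeR, adjusted P = 0.634). In *Ahr* HKO it was at 276, 376 and 382 CPM on the control diet and 876, 550.4 and 788 CPM on ethanol, with every ethanol liver above every control liver. It rose by a log2 FC of 1.10 ± 0.21 (edgeR, adjusted P = 0.0101), and with any liver left out adjusted P stayed between 0.0119 and 0.0384 (edgeR). For *Ahr* HKO against WT, the log2 FC of -0.46 ± 0.19 among controls (edgeR, adjusted P = 0.106) and of 0.51 ± 0.18 among ethanol livers (edgeR, adjusted P = 0.167) missed the threshold. The diet effects of the genotypes differed by 0.98 ± 0.28 on the log2 scale (edgeR, adjusted P = 0.0285). That call was lost without WT control liver 1 (edgeR, adjusted P = 0.0679), WT control liver 2 (0.0636), WT ethanol liver 2 (0.0622), *Ahr* HKO control liver 1 (0.0589), *Ahr* HKO ethanol liver 1 (0.0655) or *Ahr* HKO ethanol liver 3 (0.0639), and the difference stayed between 0.84 and 1.15. By mean the order was *Ahr* HKO ethanol, WT ethanol, WT control and *Ahr* HKO control, and each group overlapped its neighbour in this order.

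Of the 10 genes, 3 were called with ethanol in WT, 2 higher and 1 lower, against 9.47% of all tested genes called. The share of tested genes called was 4.84% higher and 4.63% lower. By level, 5 genes of the 10 were higher in every WT ethanol liver than in every WT control liver, against 16.2% of tested genes, and 1 was lower in all, against 16.6%. Their median log2 FC was 0.69, with 7 genes positive, beside 0.03 over all tested genes. With ethanol in *Ahr* HKO 3 were called, all higher, against 30.8% called in either direction, 14.9% higher and 15.9% lower, so that the share in either direction was near the background. By level, 3 were higher in every *Ahr* HKO ethanol liver than in every control liver, against 24.5% of tested genes, and 0 were lower in all, against 25.3%. Every member had a positive log2 FC there, of 0.38 to 1.96, with a median of 0.92 beside -0.02 over all genes, and without liver 1 the median was 0.32. In *Ahr* HKO against WT on the control diet 3 were called, all lower, against 29.6% of tested genes in either direction, 15.4% higher and 14.2% lower, again near the background for either direction. The same number, 3, did not overlap and were lower (24.1% of tested genes), and 0 were higher in all (23.2%). The median was -0.35, with 9 of 10 negative. In *Ahr* HKO against WT on the ethanol diet none was called by edgeR (background 1.1%, with 0.712% higher and 0.392% lower), 4 had an unadjusted P under 0.05 (background 21%), and DESeq2 called 3, *Acaca*, *Elovl6* and *Me1*, all lower. Of all 14038 tested genes DESeq2 called 1511 there, 797 of them lower. By level 2 members were lower in every *Ahr* HKO liver than in every WT liver, against 14.2% of tested genes, and 0 were higher in all, against 13.7%. The median there was 0.08 and turned to -0.53 without liver 1. In the interaction 2 of 10 were called, both higher, against 22.3% of tested genes in either direction, 11.2% higher and 11.1% lower, and the median of 0.54 turned to -0.12 without liver 1.

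**Figure D2:**
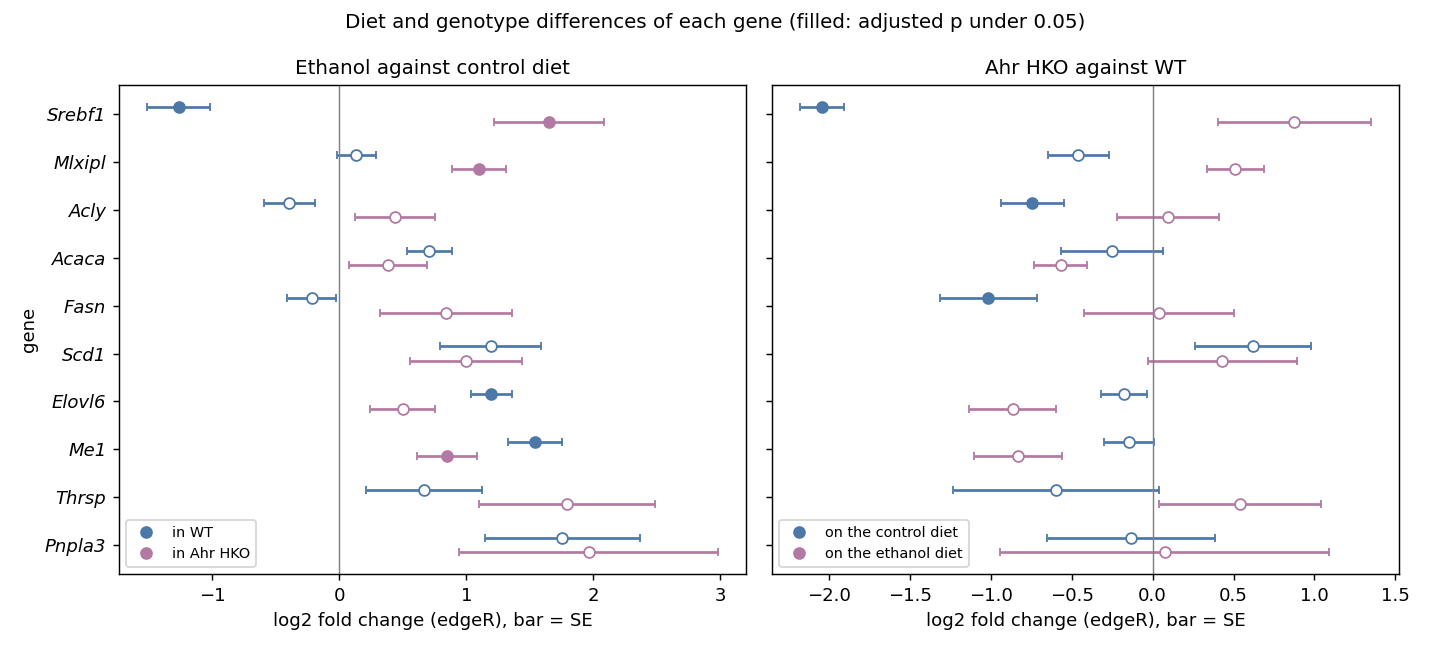
Log2 FC of each gene from edgeR, with bars for SE, for the ethanol effect in WT and in *Ahr* HKO (left) and for *Ahr* HKO against WT on each diet (right); filled points have adjusted P under 0.05. *Srebf1* is at -1.26 in WT and 1.65 in *Ahr* HKO for ethanol, and no gene is filled for the genotypes on the ethanol diet.

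*Elovl6* elongates palmitate to stearate. It lies on chromosome 3 (GRCm38, 129532386 to 129638495, plus strand). In WT it was at 80.8, 102 and 85.0 CPM on the control diet and at 171, 241 and 196 CPM on ethanol, and every ethanol liver lay above every control liver. The rise was a log2 FC of 1.20 ± 0.16 (edgeR, adjusted P = 0.00846), and it stayed called with any liver left out, at adjusted P of 0.0102 to 0.0421 (edgeR). In *Ahr* HKO it was at 68.4, 89.5 and 78.8 CPM on the control diet and at 159.9, 93.3 and 81.2 CPM on ethanol, where liver 3 overlapped the controls. The log2 FC was 0.50 ± 0.26 (edgeR, adjusted P = 0.174), and 0.15 ± 0.15 without liver 1 (edgeR, adjusted P = 0.4997). The difference between the diet effects was -0.68 ± 0.33 (edgeR, adjusted P = 0.156) and, without liver 1, -1.03 ± 0.23 (edgeR, adjusted P = 0.0142).

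*Me1* is malic enzyme, a source of cytosolic NADPH. It lies on chromosome 9 (GRCm38, 86581363 to 86695914, minus strand). In WT it was at 73.9, 97.4 and 64.7 CPM on the control diet and at 173, 239 and 266 CPM on ethanol, with no overlap. Its rise of 1.54 ± 0.21 on the log2 scale was the largest among the called members in WT (edgeR, adjusted P = 0.00895). In *Ahr* HKO it was at 74.9, 70.5 and 67.3 CPM on the control diet and at 179, 111 and 92.3 CPM on ethanol, and here too every ethanol liver was above every control liver. The log2 FC was 0.85 ± 0.24 (edgeR, adjusted P = 0.0344). Without ethanol liver 1 it was 0.52 ± 0.13 (edgeR, adjusted P = 0.0363). The call was lost without *Ahr* HKO control liver 1, 2 or 3 (edgeR, adjusted P = 0.0743, 0.0887 and 0.0803) or ethanol liver 2 (0.0516), and with limma on FPKM (adjusted P = 0.0570 to 0.0673). The difference between the diet effects was -0.68 ± 0.34 (edgeR, adjusted P = 0.175) and, without ethanol liver 1, -1.01 ± 0.27 (edgeR, adjusted P = 0.0314). *Me2*, the mitochondrial paralog, had a log2 FC of -1.09 with ethanol in *Ahr* HKO (edgeR, adjusted P = 0.0273).

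*Acly* splits citrate to acetyl-CoA and lies on chromosome 11 (GRCm38, 100476352 to 100528000, minus strand). In WT controls it was at 255, 387 and 305 CPM, and in *Ahr* HKO controls at 153, 217 and 195 CPM, with no overlap. The level in *Ahr* HKO was lower by a log2 FC of -0.74 ± 0.19 (edgeR, adjusted P = 0.0259), a call lost without WT control liver 2 or 3 (edgeR, adjusted P = 0.0787 and 0.0616) or *Ahr* HKO control liver 1 (0.0686). On ethanol it was at 186, 260.5 and 267 CPM in WT and at 390.2, 208 and 166 CPM in *Ahr* HKO, and those groups overlapped. Its log2 FC with ethanol was -0.40 ± 0.20 in WT (edgeR, adjusted P = 0.262) and 0.44 ± 0.31 in *Ahr* HKO (edgeR, adjusted P = 0.320), and without liver 1 the latter was -0.01.

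*Acaca*, acetyl-CoA carboxylase, makes malonyl-CoA, and its gene lies on chromosome 11 (GRCm38, 84129635 to 84401651, plus strand). It was at 125, 195 and 157 CPM in WT controls and at 223, 262 and 288 CPM in WT on ethanol, with no overlap. The log2 FC of 0.71 ± 0.18 missed the threshold (edgeR, adjusted P = 0.0519), and DESeq2 called it (adjusted P = 0.00335). In *Ahr* HKO it was at 73.9, 158 and 169 CPM on the control diet and at 213, 154 and 155 CPM on ethanol, where the groups overlapped. The log2 FC there was 0.38 ± 0.31 (edgeR, adjusted P = 0.372), and 0.21 ± 0.34 without liver 1 (edgeR, adjusted P = 0.675). On the ethanol diet its log2 FC of *Ahr* HKO against WT was -0.57 ± 0.16 (edgeR, adjusted P = 0.124).

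*Fasn* is fatty acid synthase, which assembles palmitate, and lies on chromosome 11 (GRCm38, 120805958 to 120825166, minus strand). Its promoter is shown because it held the XRE core, GCGTG, more often than any other enzyme promoter matched here; capitals mark the cores and the NF-Y boxes on either strand. It is chr11:120824498-120824797, minus strand, from RefSeq annotation of GRCm38.p6.
Fasn: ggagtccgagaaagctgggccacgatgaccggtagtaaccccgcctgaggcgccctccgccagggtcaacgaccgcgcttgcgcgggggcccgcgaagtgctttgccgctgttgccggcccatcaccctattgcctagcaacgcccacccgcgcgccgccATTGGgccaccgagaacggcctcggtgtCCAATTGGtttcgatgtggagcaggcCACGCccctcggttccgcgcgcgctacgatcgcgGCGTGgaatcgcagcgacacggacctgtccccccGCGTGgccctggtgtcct
The cores lay at -36 to -32, -2 to 3 and 33 to 37, and the NF-Y boxes at -90 to -86, -62 to -58 and -59 to -55, the last 2 overlapping. Over the 9 members with a promoter in the table, 5 held the XRE core, against 35.2% of all genes, and 7 held the NF-Y box CCAAT, against 41.1%. *Scd1* had no entry.

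*Fasn* was at 697, 1036 and 844 CPM in WT controls and at 254, 573 and 445 CPM in *Ahr* HKO controls, and the groups did not overlap. The level in *Ahr* HKO was lower by a log2 FC of -1.01 ± 0.30 (edgeR, adjusted P = 0.0393). The call was lost without WT control liver 1, 2 or 3 (edgeR, adjusted P = 0.0552, 0.118 and 0.0884) or *Ahr* HKO control liver 1 or 3 (0.0521 and 0.0713). On ethanol it was at 618, 691 and 888 CPM in WT and at 1413, 406 and 450.0 CPM in *Ahr* HKO. The *Ahr* HKO livers lay on either side of the WT livers, and the log2 FC was 0.04 ± 0.46 with liver 1 and -0.77 ± 0.18 without it (edgeR, adjusted P = 0.113 without it). Its log2 FC with ethanol in *Ahr* HKO was 0.84 ± 0.52 (edgeR, adjusted P = 0.255), and 0.02 ± 0.32 without liver 1 (edgeR, adjusted P = 0.973).

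*Scd1* desaturates stearate and palmitate, and it was the most abundant member per length, at a mean of 648 FPKM over the 12 livers, above 99.2% of tested genes. It lies on chromosome 19 (GRCm38, 44394450 to 44407709). It was at 1117, 1256 and 2559 CPM in WT controls and at 3081, 5389 and 2649.5 CPM in WT on ethanol, with every ethanol liver above every control liver. The log2 FC was 1.19 ± 0.40 (edgeR, adjusted P = 0.109), and DESeq2 called it (adjusted P = 0.00808). In *Ahr* HKO it was at 2108, 2057 and 3380.2 CPM on the control diet and at 8354, 2450.0 and 4285 CPM on ethanol, where the groups overlapped, with a log2 FC of 1.00 ± 0.44 (edgeR, adjusted P = 0.127). It was 0.42 ± 0.34 without liver 1 (edgeR, adjusted P = 0.408) and 1.33 without liver 2, where it passed the threshold (edgeR, adjusted P = 0.0486). Reads can be shared with the paralogs *Scd2*, *Scd3* and *Scd4*: *Scd1* took 99.5% to 99.8% of the reads on the Scd genes in every liver, and *Scd3* had reads in only 2 livers, 797 in WT ethanol liver 2 and 1286 in *Ahr* HKO ethanol liver 1, the livers with the highest *Scd1* in their groups.

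*Thrsp* encodes Spot 14, a small nuclear protein induced with lipogenesis by thyroid hormone and carbohydrate, and lies on chromosome 7 (GRCm38, 97412933 to 97417550, minus strand). It was at 129.8, 288 and 472 CPM in WT controls, 340.3, 389 and 668 CPM in WT on ethanol, 132, 79.1 and 374 CPM in *Ahr* HKO controls and 1149, 262 and 629.9 CPM in *Ahr* HKO on ethanol. The livers of each group spread over 1.96-fold or more, and the diet groups overlapped in both genotypes. The log2 FC with ethanol was 0.66 ± 0.46 in WT (edgeR, adjusted P = 0.401) and 1.79 ± 0.70 in *Ahr* HKO (edgeR, adjusted P = 0.0894). With a liver left out it ran from 0.31 to 1.17 in WT. In *Ahr* HKO it was 1.18 without ethanol liver 1 (edgeR, adjusted P = 0.245) and 2.69 without control liver 3, where it passed the threshold (edgeR, adjusted P = 0.0273).

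*Pnpla3*, a lipid droplet protein of the patatin family, was barely expressed, at a mean of 0.334 FPKM over the 12 livers, above 15.1% of tested genes. It lies on chromosome 15 (GRCm38, 84167776 to 84189521, plus strand). It had 12, 54 and 46 counts in WT controls, 57, 137 and 253 in WT on ethanol, 44, 29 and 38 in *Ahr* HKO controls, and 471, 30 and 23 in *Ahr* HKO on ethanol. Its levels of 1.08, 2.18 and 4.03 CPM in WT on ethanol lay above the 0.262, 0.964 and 0.940 CPM of the controls, with a log2 FC of 1.76 ± 0.61 (edgeR, adjusted P = 0.122). In *Ahr* HKO on ethanol its 6.68 CPM in liver 1 stood against 0.463 and 0.519 CPM in the others, and its log2 FC of 1.96 in *Ahr* HKO turned to -0.43 without that liver (edgeR, adjusted P = 0.179 and 0.494).

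**Figure D3:**
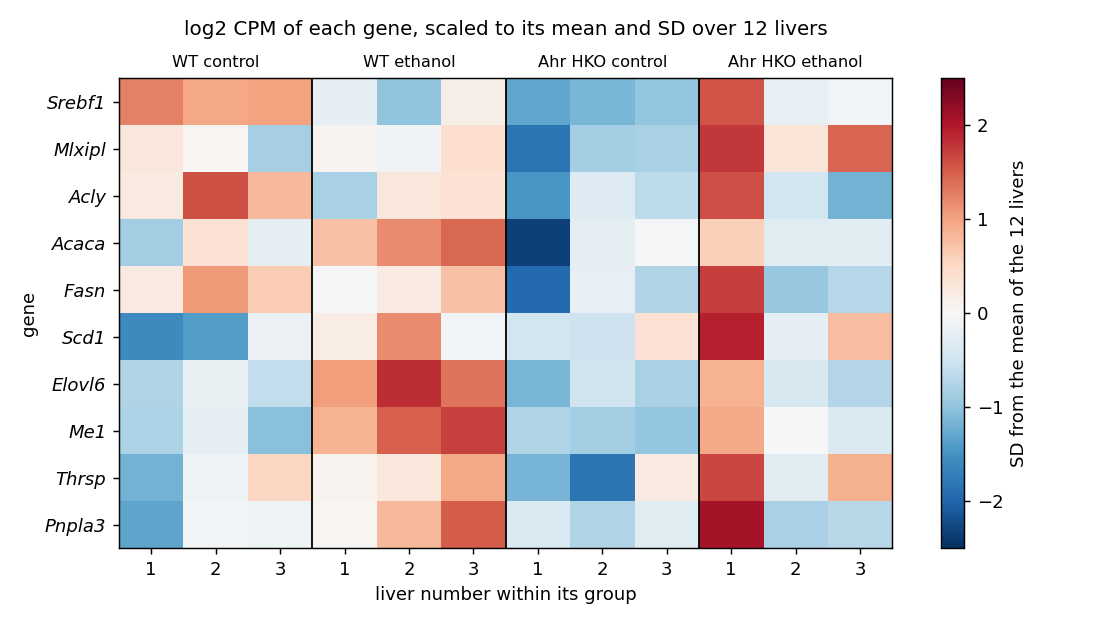
Log2 CPM of each gene in each liver, scaled to the gene's mean and SD over the 12 livers. *Ahr* HKO ethanol liver 1 is high for all 10 genes, and *Ahr* HKO controls are below the mean for most.

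The mean of the scaled levels over the 10 genes was -1.28, -0.72 and -0.47 SD in the *Ahr* HKO control livers and 0.19, 0.62 and 0.86 SD in the WT ethanol livers. It was 1.48, -0.33 and -0.09 SD in *Ahr* HKO on ethanol and -0.45, 0.20 and -0.0024 SD in WT controls. Across the 12 livers the 45 pairs of members had a median Pearson r of 0.51, from -0.07 for *Srebf1* with *Scd1* to 0.95 for *Elovl6* with *Me1*. After removing group means, 45 of 45 pairs were positive, with a median of 0.55. These livers share diet, genotype and the liver that stood apart, so the correlations are descriptions. Among the genes whose level over the 12 livers was most like the mean of the members were *Pygl* (r = 0.891, rho = 0.916), *Mtfp1*, *Abca3*, *Ptprs*, *Pdk1*, *Rbfox2*, *Pag1*, *Shank2* and *Raet1e*, the last at r = 0.864.

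As the background of the gene lists, the share of all tested genes called was 4.84% higher and 4.63% lower with ethanol in WT, with ethanol in *Ahr* HKO 14.9% and 15.9%, in *Ahr* HKO against WT on the control diet 15.4% and 14.2%, and in the interaction 11.2% and 11.1%. Among the genes that activate SREBP-1, *Scap* was called in the direction of *Srebf1* in each of the comparisons where *Srebf1* was called. *Scap*, the escort protein, was at 229, 226 and 183 CPM in WT controls, 142, 93.8 and 112 CPM in WT on ethanol, 89.3, 97.5 and 77.6 CPM in *Ahr* HKO controls and 145, 111 and 138 CPM in *Ahr* HKO on ethanol. It fell with ethanol in WT (log2 FC -0.87, edgeR, adjusted P = 0.0234), rose in *Ahr* HKO (0.58, adjusted P = 0.0202) and was lower in *Ahr* HKO on the control diet (-1.27, adjusted P = 0.00138). *Insig1*, which holds SCAP in the endoplasmic reticulum, was at 94.8, 109 and 62.2 CPM in *Ahr* HKO controls and 213, 251 and 215 CPM on ethanol there, a log2 FC of 1.35 (edgeR, adjusted P = 0.00489), and -0.34 in WT (edgeR, adjusted P = 0.409). Of the 6 genes of this list, *Scap* was called lower with ethanol in WT, and *Scap* and *Insig1* were the 2 called higher in the interaction. *Srebf2*, the SREBP-2 gene, had a log2 FC of -0.54 with ethanol in WT (edgeR, adjusted P = 0.0822) and was not called in any comparison. *Ppargc1b*, a coactivator that binds SREBP, was at 3.05, 2.76 and 1.21 CPM in *Ahr* HKO controls and 6.24, 9.71 and 10.9 CPM on ethanol there, and its diet effect exceeded that of WT by 2.61 on the log2 scale (edgeR, adjusted P = 0.00322). Of the 10 nuclear receptors and ChREBP partners, 2 were called higher with ethanol in WT (*Nr1i3* and *Nr1i2*) and 4 higher and 1 lower (*Rxra*) in *Ahr* HKO, where 30.8% of all tested genes were called. *Nr1h3*, the LXR-alpha gene, had a log2 FC of -0.14 in WT (edgeR, adjusted P = 0.353) and was not called in any comparison.

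**Figure D4:**
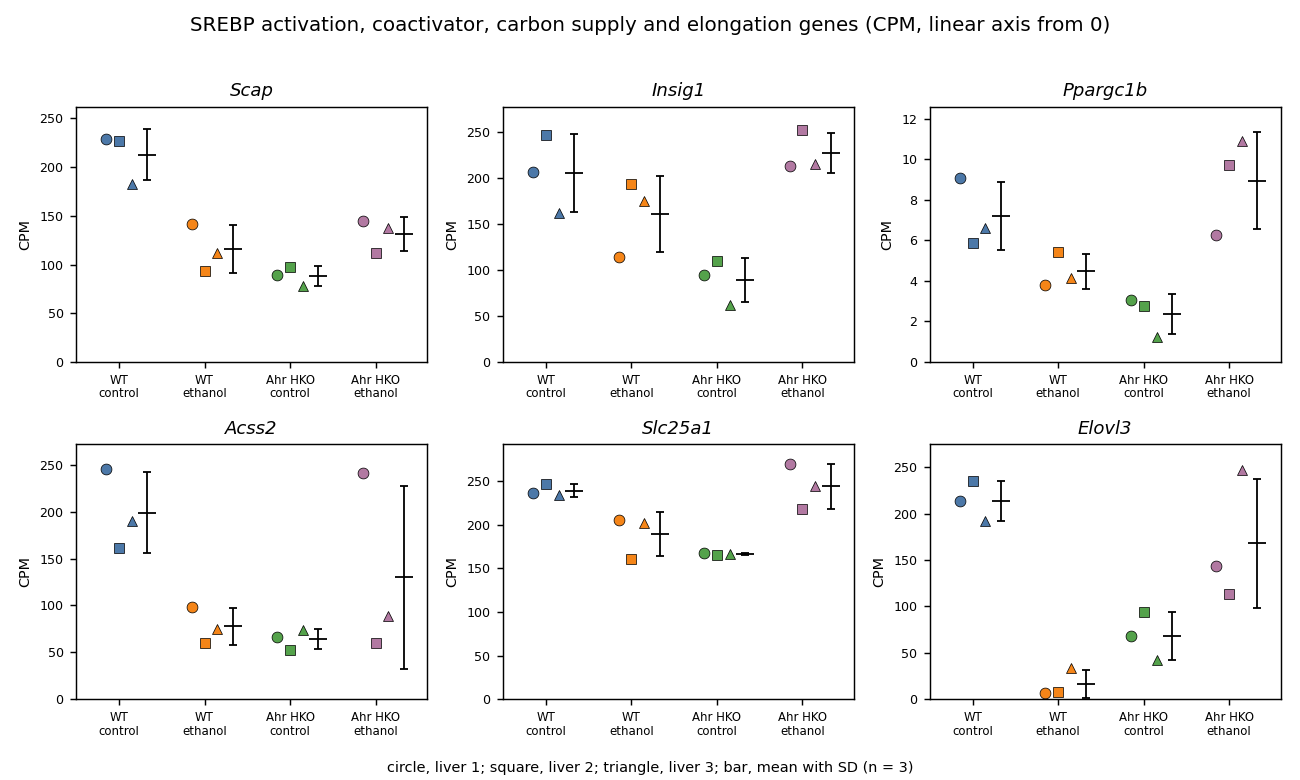
Level in CPM of *Scap*, *Insig1*, *Ppargc1b*, *Acss2*, *Slc25a1* and *Elovl3* in each liver, on linear axes, with bars for mean and SD (n = 3). *Scap* and *Elovl3* fall with ethanol in WT, and *Scap*, *Insig1*, *Ppargc1b* and *Slc25a1* in *Ahr* HKO ethanol livers all lie above every *Ahr* HKO control liver.

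Of 15 glycolysis and citrate supply genes, 5 were called higher and 2 lower with ethanol in WT, against 4.84% and 4.63% of all tested genes. *Pdk4*, which inhibits pyruvate dehydrogenase, rose by 2.48 and *Khk*, ketohexokinase, by 1.08 on the log2 scale, and *Pfkfb1*, which sets fructose 2,6-bisphosphate, fell by 1.55 and *Acss2*, cytosolic acetyl-CoA synthetase, by 1.34 (edgeR, adjusted P = 0.00297, 0.00597, 0.00625 and 0.0145). In *Ahr* HKO 3 of 15 were called higher with ethanol, near the 14.9% of all tested genes, among them *Slc25a1*, the mitochondrial citrate carrier, at 0.55 (edgeR, adjusted P = 0.0128). Of 7 NADPH supply genes tested, *Tkt* and *Pgd*, pentose phosphate enzymes, were called higher in WT (log2 FC 1.01 and 0.77, edgeR, adjusted P = 0.00177 and 0.00509), in the same direction as *Me1*. Of 8 malonyl-CoA regulators, *Prkaa2* was called higher in WT (0.62, edgeR, adjusted P = 0.0381), and *Prkaa2* and *Mlycd* were called higher with ethanol in *Ahr* HKO and lower in *Ahr* HKO on the control diet.

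Downstream of lipogenesis, *Elovl3*, which elongates saturated fatty acids, was at 214, 235 and 192 CPM in WT controls and at 6.51, 8.33 and 33.7 CPM in WT on ethanol. It fell by 3.71 on the log2 scale (edgeR, adjusted P = 0.0163), the reverse of *Elovl6*, and its diet effects differed by 5.02 between the genotypes (edgeR, adjusted P = 0.00208). Of 12 desaturation and elongation genes tested, *Scd2* and *Hacd2* were called higher and *Elovl3* lower in WT. Of 13 fatty acid activation and glycerolipid genes, *Lpin2* was called higher with ethanol in WT, 6 were called higher with ethanol in *Ahr* HKO (background 14.9%) and 5 lower in *Ahr* HKO on the control diet (background 14.2%). *Dgat2*, which makes triglyceride, was at 593, 530.0 and 614 CPM in WT controls and at 294, 323 and 309.6 CPM in *Ahr* HKO controls, a log2 FC of -0.90 (edgeR, adjusted P = 0.00216). Of 12 PPARgamma and lipid droplet genes, *Cd36*, *Pparg* and *G0s2* were called higher with ethanol in WT (background 4.84%). In *Ahr* HKO on the control diet 5 were called higher (background 15.4%), led by *Cidec* at 3.93 and *Plin4* at 2.93 on the log2 scale (edgeR, adjusted P = 0.00156 and 0.00372). *Ahr* HKO control liver 3 was the highest of its group for 9 of the 12, against 32.4% of all tested genes. With ethanol in *Ahr* HKO, 1 was called higher (background 14.9%) and 4 lower (background 15.9%). The 4 were *Cidec*, *Fabp4*, *Plin2* and *Fitm2*, at log2 FC of -2.54, -2.32, -1.21 and -0.47 (edgeR, adjusted P = 0.0169, 0.00134, 0.00323 and 0.0337). In the interaction 4 of the 12 were called, all lower (background 11.1%), with a list median of -0.81.

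Of 10 insulin signaling genes, 3 were called higher with ethanol in WT, against 4.84% of all tested genes. They were *Igfbp1*, which insulin represses, by 3.64, *Pck1*, a gluconeogenic enzyme that insulin represses, by 1.53, and *Foxo1* by 0.38 (edgeR, adjusted P = 0.0136, 0.00403 and 0.0405). *Irs1* had a log2 FC of 0.51 there (edgeR, adjusted P = 0.176). Of 15 cholesterol synthesis genes, 9 were called lower with ethanol in WT, against 4.63% of all tested genes, with a list median of -1.41. With ethanol in *Ahr* HKO 2 were called higher, near the 14.9% of all tested genes, and 0 lower, against 15.9%. The list median there was -0.35. In *Ahr* HKO against WT on the control diet 4 were called lower and 0 higher, against 14.2% and 15.4%, with a median of -0.42. In the interaction 1 was called, higher, against 11.2%, with a median of 0.87. *Ahr* HKO ethanol liver 1 was the highest of its group for all 15 genes, 12 of them over 1.5-fold above both others. The list medians were not worked out without it. Of 15 clock genes, 2 were called higher and 1 lower with ethanol in WT, against 4.84% and 4.63% of all tested genes. In *Ahr* HKO 7 were called higher, against 14.9%, and *Dbp* led there (2.31, edgeR, adjusted P = 0.0380).

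**Figure D5:**
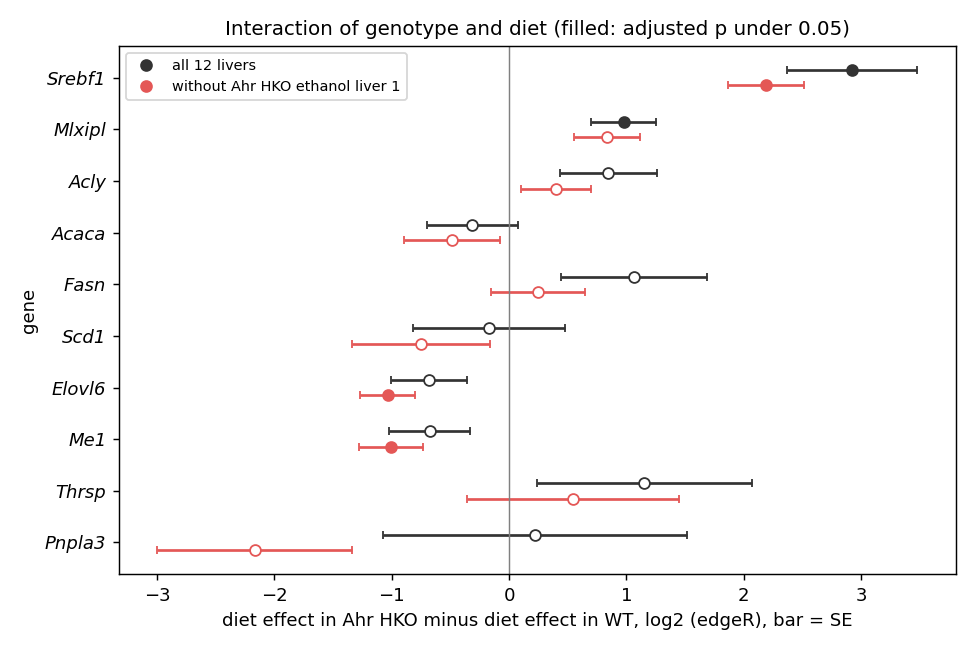
Difference between the diet effect in *Ahr* HKO and in WT for each gene, in log2 units from edgeR with SE bars, with all 12 livers and without *Ahr* HKO ethanol liver 1; filled points have adjusted P under 0.05. *Srebf1* stays at 2.19 without that liver, while *Elovl6* and *Me1* become called at -1.03 and -1.01 and *Mlxipl* loses its call.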

How the data were processed

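The authors deposited 1 table of 12 mouse livers with raw read counts per gene (whole numbers, no normalization), FPKM and TPM. The submitters' notes name FastQC 0.11.7, Trimmomatic 0.38, HISAT2 2.1.0, Bowtie2 2.3.4.1 and StringTie 1.3.4d on mm10, for poly-A stranded libraries. The deposited FPKM values divide by gene length and library size. The TPM values deposited by the authors were read in but not used. Groups came from the labels.

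Counts were filtered with filterByExpr (14038 of 24532 genes kept), scaled by TMM and tested with the quasi-likelihood method of edgeR 4.0.16 in R 4.3.3, each pair of groups with its own 6 libraries and the interaction with all 12, and adjusted by Benjamini-Hochberg over the 14038 genes. SE was derived from log2 FC and F. Displayed CPM used TMM factors over all 12 libraries. The scaled levels used log2(CPM + 0.1). The smallest level taken as detectable was 3 counts, 0.0404 to 0.0648 CPM, which covers counting error only. Members and gene lists were chosen with earlier results of these data known. All members were named in every comparison, and of each list up to 4 called genes with the largest log2 FC, with close paralogs; *Nr1h3*, *Arntl*, *Ahr* and *Cyp1a2* were named after their values were seen. The steps were tested on simulated data. Alternatives used DESeq2 1.42.0, limma 3.58.1, other scalings and filters, FPKM, a replicate block and leaving out each liver. Some genes that the naming rule selects are not reported here.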

Additional observations from a re-analysis of the deposited data

Results flagged for a closer look

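The response of *Srebf1* to ethanol differed between the genotypes. The diet effect in *Ahr* HKO exceeded that in WT by 2.92 on the log2 scale (edgeR interaction, adjusted P = 0.00487), with levels of 297 to 358 CPM falling to 84.3 to 176 CPM in WT and 69.7 to 86.4 CPM rising to 140 to 438 CPM in *Ahr* HKO. The response of *Mlxipl* differed as well, by 0.98 (edgeR interaction, adjusted P = 0.0285), with a log2 FC of 0.13 in WT and 1.10 in *Ahr* HKO. The *Mlxipl* call was lost when any of 6 livers was left out and in 4 of 8 other settings, at adjusted P of up to 0.0789.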

How the results depend on the processing

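*Srebf1* kept its call in the interaction and on the control diet under every alternative run, as did *Elovl6* and *Me1* with ethanol in WT and *Mlxipl* with ethanol in *Ahr* HKO. Of 800 member values over the alternatives, 705 kept direction and side of the threshold, 36 lost a call, 17 gained one and 42 changed sign, 0 of them a called value. DESeq2 called 6 members with ethanol in WT and 3 between the genotypes on the ethanol diet. All 12 libraries in a single fit gave 1 member between the genotypes on the control diet, and *Srebf1* with ethanol in WT then had adjusted P = 0.0607 (edgeR). Over all tested genes that fit called 4381 between the genotypes on the control diet, against 4161. Interaction calls fell to 1 under limma on quantile-normalized log2(FPKM + 1), on log2(FPKM + 1) and on log2(FPKM + 0.1), and the median there was 0.0124 under the last. Over all tested genes the interaction calls under them were 3219, 3446 and 3533, against 3137. The median between the genotypes on ethanol became -0.0498, -0.159 and -0.300 under these 3 limma settings. Single members changed sign there: *Fasn* (-0.00584 with upper-quartile scaling, then -0.258, -0.394 and -0.402), *Pnpla3* (-0.00645, -0.124 and -0.657), *Acly* (-0.0726, -0.193 and -0.197) and *Scd1* (-0.0271 under the quantile setting). *Pnpla3* was 0.00200 between the genotypes on the control diet under the quantile setting and -0.00844, -0.113 and -0.646 in the interaction. The FPKM settings without quantile scaling moved the median of all genes to as far as -0.240 (interaction, -0.0252 with edgeR), and on ethanol the genotypes then gave 83 genes higher and 394 lower with log2(FPKM + 0.1), against 100 and 55. Over all genes DESeq2 called 2335 with ethanol in WT against 1329, and 1511 between the genotypes on ethanol against 155. The cause was not tested.

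Leaving out each liver in turn, members called ranged from 2 to 3 with ethanol in WT, 1 to 3 between the genotypes on the control diet, 1 to 3 with ethanol in *Ahr* HKO and 1 to 3 in the interaction. Over all tested genes the calls fell too. They ranged from 367 to 1026 with ethanol in WT (1329 with every liver) and 2630 to 3748 between the genotypes on the control diet (4161). With ethanol in *Ahr* HKO they ranged from 2588 to 3792 (4322), and in the interaction from 2267 to 3084 (3137). The medians ranged from -0.534 to 0.451 between the genotypes on ethanol and from -0.119 to 0.868 in the interaction. Members that changed sign were *Mlxipl* with ethanol in WT (-0.00824 to 0.242); *Me1* (-0.272 to 0.0336), *Pnpla3* (-0.529 to 0.128) and *Acaca* (-0.456 to 0.0440) between the genotypes on the control diet; *Acly* (-0.339 to 0.327), *Fasn* (-0.767 to 0.337), *Scd1* (-0.138 to 0.836), *Thrsp* (-0.0582 to 0.924) and *Pnpla3* (-2.30 to 0.641) on ethanol; *Acly* (-0.00642 to 0.669) and *Pnpla3* (-0.428 to 2.46) with ethanol in *Ahr* HKO; and *Scd1* (-0.752 to 0.208) and *Pnpla3* (-2.17 to 0.798) in the interaction.

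The labels give same-numbered livers nothing in common but the number. Correlations of their deviations from group means ran from -0.127 to 0.285. Between the genotypes on ethanol they ran from -0.0197 to 0.285, against -0.282 to 0.0777 for livers of other numbers. Whether the numbers pair livers was not settled by these values. Over all tested genes the replicate block called 245 between the genotypes on ethanol, against 155, and 2745 in the interaction, against 3137. With the replicate block, interaction calls fell to 1, *Srebf1* with ethanol in *Ahr* HKO lost its call (1.43, edgeR, adjusted P = 0.0636) and *Thrsp* there gained it (adjusted P = 0.0493), the ethanol-diet median was -0.0992, *Fasn* was -0.209 and *Pnpla3* -0.976 there, and *Pnpla3* was 0.00853 on the control diet; ethanol in WT called 517 genes of all, against 1329.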
